A study of Homo sapiens with 95 samples.

Results

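The 6 genes described here encode structural proteins of caveolae: the caveolins CAV1 and CAV2, the cavins PTRF (CAVIN1), SDPR (CAVIN2) and PRKCDBP (CAVIN3), and the ATPase EHD2. They were picked by symbol from the 23895 genes listed for every well, and all 6 had a mean count above 1, the minimum for a test. CAV1 was singled out from its lower level under cigarette smoke condensate and benzo[a]pyrene in an earlier analysis of the same wells, and the other 5 genes were taken as its partners. CAV1 differences under those chemicals are therefore given as values with no test in the 5 populations that each main fit below uses. The question asked of the data was whether the partners moved with CAV1.

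Caveolae are flask-shaped pits of the plasma membrane, rich in cholesterol, that act as a membrane reserve under stretch and as sites of lipid and signal handling. Caveolins are hairpin-shaped proteins that insert into the inner leaflet, and CAV1 is needed for the pits to form outside striated muscle. Cavins form a coat on the cytosolic face, with CAVIN1 needed for the pit and the others modifying it, while EHD2 sits at the neck and holds the pit at the surface. In cultured epithelial cells CAV1 is also studied as a regulator of proliferation and senescence, and its protein can be present without pits when CAVIN1 is scarce.

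Bronchial epithelial cells of the human AALE line, which is immortalized, were grown as 8 populations, and each well held 1 population given 1 of 4 chemicals. All populations carried a construct. HCRED cells expressed a red fluorescent reporter and served as the control for cells that overexpressed NRF2, FGFR1, NRG1 or PIK3CA, while GFP cells received Cas9 with EGFP and no guide and served as the control for the FAT1 and CDKN2A knockouts. The chemicals were the DMSO vehicle, cigarette smoke condensate (CSC, 24 µg/ml), benzo[a]pyrene (BaP, a polycyclic hydrocarbon, 173 µM) and NNK (a tobacco nitrosamine, 490 µM). Messenger RNA was measured by 3′DGE, which counts unique molecular identifiers (UMIs) at the 3′ end of transcripts, and levels are given below as CPM, the count scaled to the well's total.

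Of 95 wells, 82 carried a 1-digit replicate number and formed 31 groups, of which 25 held 3 wells. The other 13 carried 2-digit numbers, were not said to be separate cultures, and are used below only where named. Total counts per well ran from 692446 to 1895735, so that 1 count was worth between 0.527 and 1.44 CPM among the 82 wells, and the median total was highest under DMSO and lowest under NNK. Each plate row held 1 chemical, and each population kept its columns, so chemical cannot be told apart from plate row, nor population from its place on the plate. The study calls the wells of a group biological replicates without saying how their cultures were kept apart. The p-values rest on the spread between wells, which the tests pool in part over all genes. In fits of 3 against 3 wells the pooled part carried most of the weight. No p-value measures a spread between separately made populations of the same construct. The well of NRG1 cells under NNK with replicate number 2 stood apart from its group and is left out where its effect is stated. Under DMSO each of the 4 overexpressed genes was higher in every well of its population than in every HCRED well (NFE2L2 at 139 to 163 CPM against 36.8 to 51.9 CPM, for example), and FAT1 and CDKN2A were lower in every well of their knockouts than in every GFP well. Markers of basal airway epithelium were present (all 8 listed genes averaged at least 20 CPM). VWF and CDH5 of endothelium, and DES and ACTC1 of muscle, were at 0 in all 82 wells. Other listed markers had low counts. PECAM1 of endothelium averaged 1.39 CPM and ADIPOQ of adipocytes 1.43 CPM, each with a count in 65 wells, and MYH11 of muscle had one in 14 wells. Of the 5 fibroblast markers DCN averaged 3.98 CPM and the others under 1 CPM.

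The pair of caveolin genes are neighbours. In the GENCODE gene records on hg19 CAV2 spans chr7:115927434-116148595 and CAV1 spans chr7:116165048-116201233, both on the plus strand, with 16452 bases between them. The counts used RefSeq transcripts, in which the extent of a gene can differ from these records. The other genes lie apart, PTRF at chr17:40554467-40575274, SDPR at chr2:192699036-192711814, PRKCDBP at chr11:6340176-6341762 and EHD2 at chr19:48216679-48246391. In the GENCODE annotation at least 1 gene of a long noncoding RNA overlaps each of the 6, on the opposite strand for CAV1, CAV2, SDPR and PRKCDBP and on the same strand for PTRF and EHD2. Whether counting used strand is not given in the sources used here, so reads of the overlapping genes cannot be told apart.

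The 250 bases before a transcript start are shown for CAV1 and CAV2, since the pair lies side by side and CAV1 is the gene that was singled out. They come from RefSeq on GRCh38.p14, which is not the build of the counts, and capitals mark matches to GCGTG on either strand, the core bound by the aryl hydrocarbon receptor (AHR), for which BaP is a ligand. The NRF2 core TGACNNNGC was searched in the same way. CAV1 has several listed starts, and the one farthest upstream and the one farthest downstream are given.

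CAV1, upstream start, chr7:116524759-116525008, plus strand: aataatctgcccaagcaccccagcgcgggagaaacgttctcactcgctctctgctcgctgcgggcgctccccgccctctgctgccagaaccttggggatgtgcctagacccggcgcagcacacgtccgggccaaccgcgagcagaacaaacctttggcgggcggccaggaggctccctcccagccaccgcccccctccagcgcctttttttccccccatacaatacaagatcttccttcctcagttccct
CAV1, downstream start, chr7:116526112-116526361, plus strand: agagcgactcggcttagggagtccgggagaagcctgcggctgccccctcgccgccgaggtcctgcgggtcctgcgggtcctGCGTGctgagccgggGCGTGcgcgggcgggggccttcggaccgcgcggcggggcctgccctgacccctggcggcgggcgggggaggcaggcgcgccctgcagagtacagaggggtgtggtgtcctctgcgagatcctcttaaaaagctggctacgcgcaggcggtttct
CAV2, upstream start, chr7:116499488-116499737, plus strand: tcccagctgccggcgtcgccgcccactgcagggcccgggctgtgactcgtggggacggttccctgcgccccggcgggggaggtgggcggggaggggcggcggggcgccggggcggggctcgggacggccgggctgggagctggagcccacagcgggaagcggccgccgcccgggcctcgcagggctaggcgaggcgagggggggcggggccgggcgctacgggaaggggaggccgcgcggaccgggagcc

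The window before the downstream CAV1 start held 2 matches to GCGTG and the other printed windows held 0. No window of CAV1, CAV2, SDPR or EHD2 held the NRF2 core, and the motifs did not overlap anywhere in them. Among 35116 windows of the same length GCGTG was present in 32.2% and TGACNNNGC in 10.9%, so a match is common, and the files hold no measurement of binding. No count distinguishes the CAV1 starts, because 3′DGE reads the other end of the transcript.

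CAV1 was lower under CSC in every population. In HCRED cells the 3 DMSO wells held 668, 755 and 787 CPM and the 3 CSC wells 452, 463 and 482 CPM. In NRF2 cells the DMSO wells held 782, 857 and 871 CPM and the CSC wells 429, 444 and 459.9 CPM. In PIK3CA cells they held 693, 724 and 734 CPM against 508, 509 and 518 CPM. No CSC well of these populations reached its DMSO range, and the lowest of these 9 CSC wells was one of NRF2 cells. In FAT1 cells the DMSO wells held 705, 734 and 753 CPM and the CSC wells 484, 492 and 515 CPM. In GFP cells the DMSO wells held 839, 863 and 866 CPM and the CSC wells 596, 669.6 and 679 CPM. The groups did not overlap there either, although CAV1 in GFP cells under CSC stayed above the level of the other 4 populations under CSC.

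**Figure D1:**
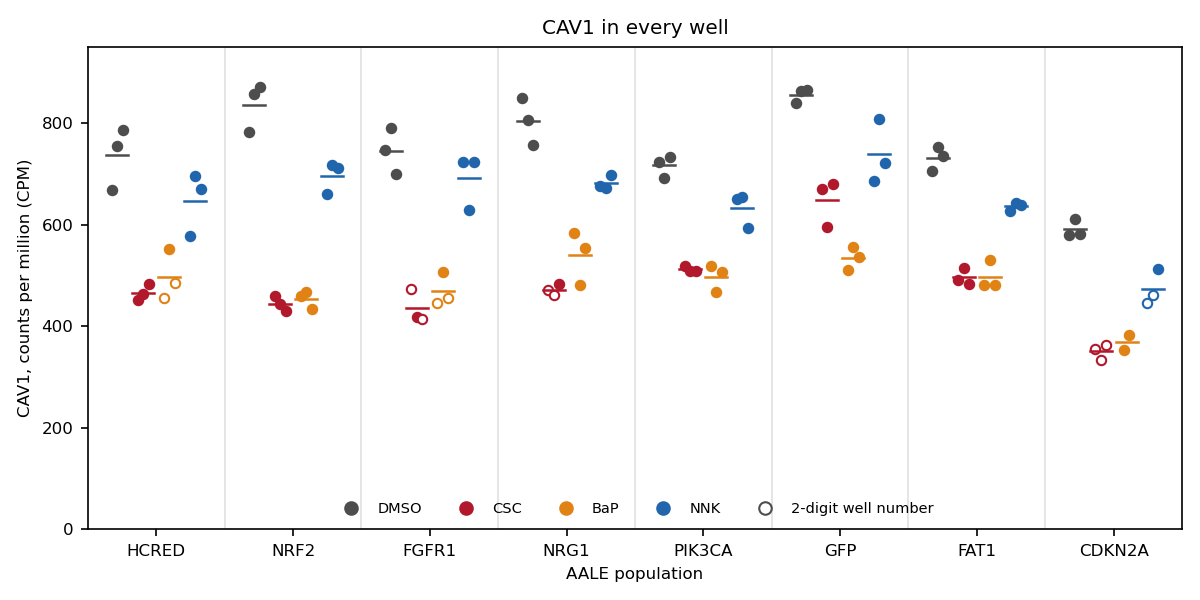
CAV1 in CPM (y axis, from 0) in every well by AALE population (x axis) and chemical (colour), with a bar at the mean of all wells plotted and open symbols for wells with 2-digit numbers. Every CSC and BaP well lies below every DMSO well of its population, with GFP under CSC at 596 to 679 CPM and CDKN2A cells lowest under all 4 chemicals.

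The mean under CSC was between 0.531 times the DMSO mean in NRF2 cells and 0.757 times it in GFP cells. Fitted over the 5 populations with 3 wells under both (limma on log2 CPM with voom precision weights, population as a covariate, two-sided), the CAV1 difference was -0.60 (SE 0.036) on the log2 scale. For CAV1, CSC wells lay wholly below DMSO wells in 5 of 5 populations. Over all genes, 6.98% of gene and population pairs were separated downward and 7.13% upward. Because CAV1 was selected on this difference, nothing is read from that comparison.

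CAV1 was also lower under BaP, in 5 of 5 populations with 3 wells under both chemicals, where 8.9% of all gene and population pairs were separated downward and 6.73% upward. The BaP wells of NRF2 cells held 433, 459.8 and 467 CPM, and those of GFP cells 511, 535 and 556 CPM. The BaP wells of NRG1 cells held 482, 554 and 584 CPM against 757, 806 and 849 CPM under DMSO. Again no group overlapped its DMSO wells, and NRG1 wells were the most spread. In PIK3CA cells BaP wells held 467, 506 and 519 CPM, and in FAT1 cells 480.5, 481 and 531 CPM. These ranges overlapped those of the same populations under CSC. The fitted difference from DMSO was -0.61 (SE 0.031), and that between BaP and CSC, a comparison added after the values were seen, was -0.017 (SE 0.037) over the 4 populations with 3 wells under both.

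Treated wells of the populations outside those fits were not used in them. Of the 9 DMSO wells in each fit below, 3 also served those fits. Whether the earlier analysis that singled out CAV1 used these treated wells is not known here. The CAV1 p-values in this and the next paragraph are therefore no independent check of its fall. In FGFR1 cells CAV1 was at 699.9, 747 and 791 CPM under DMSO and at 414, 419 and 472 CPM under CSC. In NRG1 cells the CSC wells held 462, 470.2 and 483 CPM. In CDKN2A cells the DMSO wells held 580.2, 582 and 611 CPM and the CSC wells 333, 354 and 363 CPM. Every CSC well lay below every DMSO well in these 3 populations, with no share of all genes so separated to set beside it. Of the CSC wells 7 of 9 had 2-digit numbers, and wells sharing a first digit were summed for the fit, which left 5 CSC samples against 9 DMSO samples. CAV1 fell there by 0.72 on the log2 scale (SE 0.070, adjusted p = 1.7e-13, limma with Benjamini-Hochberg adjustment over all genes tested), and 1.82% of 12021 genes tested passed at this threshold of 0.05.

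Under BaP the populations outside the fit were HCRED, FGFR1 and CDKN2A. HCRED cells held 455, 485 and 553 CPM, FGFR1 cells 446, 456 and 507 CPM, and CDKN2A cells, in their 2 wells, 354 and 382 CPM. All 8 wells were below the DMSO wells of their populations, again with no share of all genes to set beside it. Summing by first digit left 6 BaP samples against 9 DMSO samples. CAV1 fell by 0.48 (SE 0.065, adjusted p = 3.0e-08, limma), in a fit that called 6.78% of genes. The DMSO wells of HCRED also served the CSC fit, those of NRG1 the BaP fit, and DMSO wells are shared throughout between CSC, BaP and NNK comparisons, so these differences are not independent of each other.

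NNK moved CAV1 less. The NNK wells ran from 577 CPM in HCRED cells to 808 CPM in GFP cells among the 7 populations with 3 wells. In 5 of these every NNK well was below every DMSO well. The share of all genes so separated was not computed for NNK, so nothing is read from that count. NRF2 cells held 660.3, 711 and 718 CPM and FAT1 cells 626, 639 and 643 CPM, whereas FGFR1 and HCRED cells overlapped their DMSO wells. CAV1 fell by 0.15 (SE 0.048, adjusted p = 0.031, limma), and 7.22% of all genes passed. Without NRG1 well 2 the value was -0.12 (adjusted p = 0.00063, limma), in a fit that called 2245 of 11279 genes against 819 of 11349 with that well. CAV1 was the member called under NNK, 1 of 6, and that call was lost without replicate 1, without replicate 3, or without the GFP, HCRED or NRF2 population (adjusted p between 0.065 and 0.155, limma). The DMSO wells of this fit also served the CSC and BaP comparisons in which CAV1 was singled out. The NNK test of CAV1 is therefore not independent of that choice.

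The size of the CAV1 difference under CSC varied between populations. On the log2 CPM scale it was -0.96 in NRF2 cells, -0.62 in HCRED, -0.58 in FAT1, -0.45 in PIK3CA and -0.43 in GFP cells. Under BaP it ran from -0.85 in NRF2 cells to -0.48 in PIK3CA cells. These are the wells on which CAV1 was chosen, so the spread between populations is given with no test for CAV1. For the partners, a moderated F on the population by chemical terms (limma variances) called 0 of 5 under CSC and 0 of 5 under BaP, with 1 at an unadjusted p under 0.05 in each, where 0.106% of genes passed under CSC and 0.106% under BaP.

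CAV2, the caveolin that forms oligomers with CAV1 and reaches the surface with its help, overlapped its DMSO wells in most populations under CSC and BaP. Over the 24 DMSO wells it ran from 24.5 to 73.7 CPM with a median of 51.9 CPM. Its medians were 47.0 CPM over 17 CSC wells, 39.6 CPM over 19 BaP wells and 42.2 CPM over 22 NNK wells, and all 4 ranges overlapped.

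Under CSC the CAV2 wells of FAT1 cells held 52.4, 52.6 and 56.4 CPM, within the DMSO range of 51.7, 58.4 and 66.8 CPM. In NRF2 cells they held 36.9, 40.8 and 43.2 CPM, below DMSO wells at 44.9, 47.2 and 53.1 CPM. In PIK3CA cells they held 43.5, 45.6 and 55.9 CPM and overlapped DMSO wells at 37.1, 39.5 and 47.0 CPM. NRF2 was thus the 1 of 5 populations in which CAV2 wells separated downward, where 6.98% of all gene and population pairs did. The fitted CAV2 difference was -0.13 (SE 0.073, 95% interval -0.28 to 0.0089, adjusted p = 0.353, limma), beside an interval of -0.67 to -0.53 for CAV1.

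Under BaP CAV2 fell by 0.26 (SE 0.071, adjusted p = 0.011, limma). NRF2 cells held 30.3, 33.2 and 38.7 CPM, again the 1 population without overlap, where 8.9% of all gene and population pairs separated downward. GFP cells held 41.0, 43.6 and 52.4 CPM against 50.7, 58.6 and 64.6 CPM under DMSO, and NRG1 cells held 42.2, 50.2 and 50.2 CPM against 43.3, 53.2 and 63.3 CPM. Both groups reached below their DMSO wells and overlapped them. CAV2 was the partner called under BaP, 1 of 5 tested, where 9.16% of all genes passed. The call was lost without replicate 1 (adjusted p = 0.101), without replicate 2 (0.195) and without the FAT1 or the NRF2 population (0.067 and 0.112).

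The remaining populations gave larger CAV2 values. FGFR1 cells held 49.6, 58.9 and 73.7 CPM under DMSO, 30.1, 31.8 and 34.8 CPM under CSC and 28.6, 34.1 and 34.8 CPM under BaP, with no overlap. CDKN2A cells held 24.5, 29.2 and 40.3 CPM under DMSO and 17.8 and 21.6 CPM under BaP. In those 3 populations CAV2 fell under BaP by 0.51 (SE 0.12, adjusted p = 0.0037, limma). Without FGFR1 cells that value was -0.36 (adjusted p = 0.227). Under CSC the value was -0.39 (SE 0.12, adjusted p = 0.081), which did not pass. It passed in 3 of 9 alternatives, by edgeR (-0.40, adjusted p = 0.040), with 2-digit wells as separate samples (-0.40, adjusted p = 0.033) and without NRG1 cells (-0.62, adjusted p = 0.048), and it was -0.15 without FGFR1 cells (adjusted p = 0.829). CAV1 stood at -0.48 under BaP in those populations, and the difference between the 2 caveolins was not tested. Whether the response of CAV2 differed between populations within the 5 of each fit was tested by F, at 2.03 under CSC and 0.775 under BaP (adjusted p = 0.869 and 0.923).

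**Figure D2:**
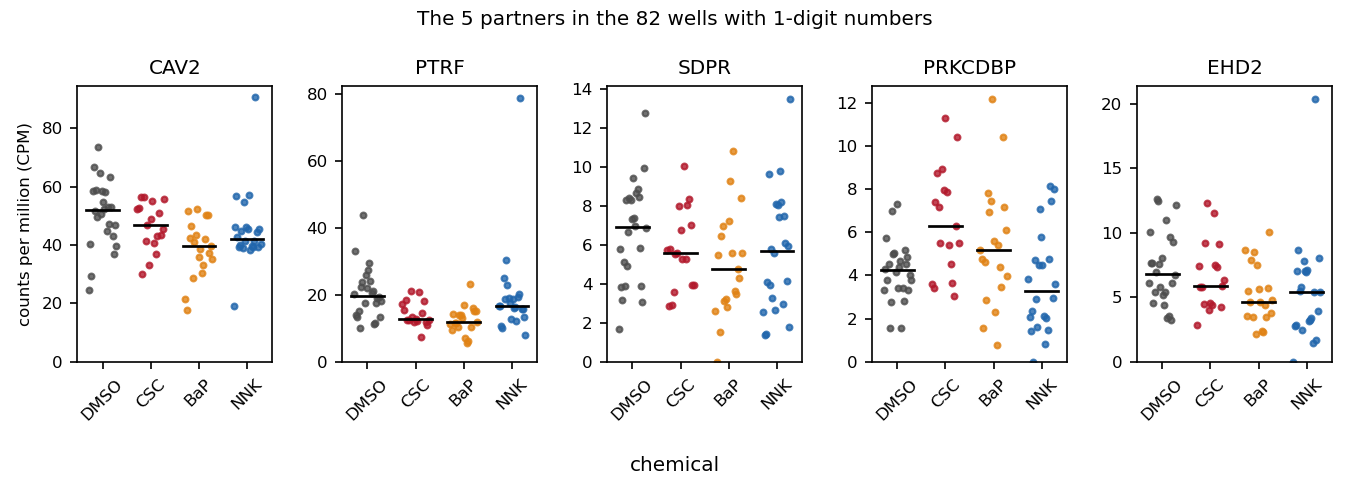
CPM (y axis, from 0, its range set per gene) of the 5 partners in the 82 wells with 1-digit numbers by chemical (x axis), with a bar at the median. CAV2 medians run from 51.9 CPM under DMSO to 39.6 CPM under BaP, PRKCDBP medians go from 4.24 CPM under DMSO to 6.31 CPM under CSC, and the highest NNK point of CAV2, PTRF and EHD2 is 1 well, NRG1 well 2.

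PTRF encodes CAVIN1, the cavin without which the coat does not assemble. Its DMSO wells ran from 10.0 to 43.9 CPM (median 19.6 CPM), its CSC wells from 7.53 to 21.1 CPM (median 12.8 CPM) and its BaP wells from 5.58 to 23.3 CPM (median 11.98 CPM). Counts were low, with a median of 20 counts per well over the 82 wells. The medians under both chemicals were below the DMSO median, and the ranges overlapped.

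In HCRED cells PTRF was at 24.0, 27.4 and 29.4 CPM under DMSO and at 11.96, 12.3 and 12.8 CPM under CSC. In PIK3CA cells it was at 13.4, 18.2 and 19.2 CPM under DMSO and at 11.1, 11.9 and 12.6 CPM under CSC. In FAT1 cells the order was the opposite, with 10.0, 13.3 and 15.3 CPM under DMSO and 15.4, 17.2 and 18.5 CPM under CSC. PTRF wells thus separated downward in 2 of 5 populations and upward in 1, where 6.98% of all gene and population pairs separated downward and 7.13% upward. The fitted difference under CSC was -0.38 (SE 0.13, 95% interval -0.64 to -0.13, adjusted p = 0.067, limma), which did not pass. Without FAT1 cells it was -0.61 (adjusted p = 0.0021), and the edgeR quasi-likelihood test gave -0.38 (adjusted p = 0.031). The F for a difference between populations was 3.65 (adjusted p = 0.730).

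Under BaP PTRF in NRF2 cells was at 5.58, 6.18 and 6.97 CPM against 11.3, 20.5 and 21.1 CPM under DMSO, the lowest group measured. GFP cells held 13.1, 13.8 and 13.9 CPM against 17.6, 21.99 and 25.8 CPM. NRG1 cells held 10.4, 16.1 and 23.3 CPM against 11.6, 17.5 and 18.9 CPM. NRF2 and GFP were the 2 of 5 populations with separate groups, where 8.9% of all gene and population pairs separated downward. The fitted difference was -0.36 (SE 0.13, adjusted p = 0.078, limma) and the F between populations 3.40 (adjusted p = 0.660). The PTRF difference passed without NRG1 cells (-0.49, adjusted p = 0.023), without replicate 1 (-0.51, adjusted p = 0.035), by edgeR (-0.38, adjusted p = 0.034) and with library totals (-0.40, adjusted p = 0.049).

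In the populations outside the main fits PTRF passed under both chemicals. FGFR1 cells held 22.2, 23.7 and 43.9 CPM under DMSO and 12.6, 12.7 and 14.1 CPM under CSC. HCRED cells held 9.44, 16.8 and 17.1 CPM under BaP. The fall was 0.61 under CSC (SE 0.18, adjusted p = 0.045) and 0.74 under BaP (SE 0.18, adjusted p = 0.0035, limma for both). CAV1 and PTRF were the members called there under CSC, 2 of 6, and CAV1, CAV2 and PTRF under BaP, 3 of 6. These fits called 1.82% and 6.78% of all genes tested. Both counts include CAV1, which was singled out for its fall, so the partners called were PTRF under CSC and CAV2 and PTRF under BaP. The PTRF call under CSC was lost without FGFR1 cells (-0.37, adjusted p = 0.610) and without CDKN2A cells (-0.55, adjusted p = 0.188), by DESeq2 (0.136), with library totals (0.074) and with no filter (0.152), and that under BaP without HCRED cells (-0.72, adjusted p = 0.084).

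PRKCDBP, or CAVIN3, binds CAV1 and protein kinase C delta, and it went the other way. Its DMSO wells ran from 1.54 to 7.33 CPM with a median of 4.24 CPM, and its CSC wells from 3.03 to 11.3 CPM with a median of 6.31 CPM. A well held a median of 6 counts of PRKCDBP over the 82 wells, so single wells are imprecise. In HCRED cells the DMSO wells held 3.42, 4.41 and 4.65 CPM and the CSC wells 7.88, 7.98 and 11.3 CPM. In PIK3CA cells they held 3.31, 3.80 and 4.03 CPM against 5.51, 6.31 and 10.4 CPM. In NRF2 cells they held 1.57, 2.82 and 3.40 CPM against 3.66, 4.52 and 5.39 CPM. These 3 of 5 populations showed separate groups, while GFP and FAT1 cells overlapped. Over all genes 7.13% of gene and population pairs separated upward under CSC.

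PRKCDBP rose under CSC by 0.73 on the log2 scale (SE 0.19, adjusted p = 0.0092, limma), the 1 of 5 partners called, where 5.81% of all genes passed. The call was lost without replicate 1, 2 or 3 (adjusted p between 0.075 and 0.097), with values of 0.72 to 0.74, and without the HCRED (0.62, adjusted p = 0.111) or the PIK3CA population (0.66, adjusted p = 0.075). In FGFR1, NRG1 and CDKN2A cells the CSC value was 0.17 (SE 0.27, 95% interval -0.37 to 0.71, adjusted p = 0.882). Under BaP the values were 0.32 (SE 0.21, adjusted p = 0.401) and, in the other populations, 0.58 (SE 0.27, adjusted p = 0.215). The difference between BaP and CSC was -0.25 for PRKCDBP (SE 0.23, adjusted p = 0.661) and -0.17 for CAV2 (SE 0.080, adjusted p = 0.272). In that comparison 0 of 5 partners passed by limma, 0 by edgeR and 0 by DESeq2, with 1, 2 and 0 at an unadjusted p under 0.05, and 4.58% of genes passed.

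SDPR encodes CAVIN2, a phosphatidylserine-binding cavin. It passed in none of the comparisons of chemicals with DMSO. The DMSO wells ran from 1.67 to 12.8 CPM (median 6.90 CPM), and medians were 5.59 CPM under CSC, 4.73 CPM under BaP and 5.68 CPM under NNK. GFP cells held 7.33, 8.31 and 8.39 CPM under DMSO, 3.59, 5.50 and 5.59 CPM under CSC and 2.81, 3.09 and 3.19 CPM under BaP, the 1 of 5 populations with separate groups for each chemical. Over all genes 6.98% of gene and population pairs separated downward under CSC and 8.9% under BaP. The fitted SDPR values were -0.39 under CSC (SE 0.17, adjusted p = 0.194), -0.36 under BaP (SE 0.18, adjusted p = 0.244) and -0.31 under NNK (SE 0.17, adjusted p = 0.304, limma for all). In the other populations they were 0.11 under CSC (SE 0.28, adjusted p = 0.935) and -0.73 under BaP (SE 0.32, adjusted p = 0.176).

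EHD2, the ATPase at the neck, had a DMSO median of 6.82 CPM and medians of 5.87 CPM under CSC, 4.64 CPM under BaP and 5.40 CPM under NNK. PIK3CA cells under CSC were the 1 population whose EHD2 groups separated, at 4.21, 5.87 and 6.30 CPM against 6.71, 9.27 and 12.2 CPM under DMSO. Under CSC 6.98% of all gene and population pairs separated downward. The fitted values were -0.029 under CSC (SE 0.19, 95% interval -0.40 to 0.34, adjusted p = 0.965) and -0.33 under BaP (SE 0.20, 95% interval -0.72 to 0.064, adjusted p = 0.359, limma for both). A well held a median of 7 counts, and the EHD2 interval under BaP includes both 0 and the CAV1 value of -0.61. In the other populations EHD2 was at -0.079 under CSC (SE 0.23) and -0.36 under BaP (SE 0.27), and neither passed (adjusted p = 0.942 and 0.503, limma).

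Under NNK 0 of the 5 partners passed by limma, edgeR or DESeq2, with 1 at an unadjusted p under 0.05 by each, at values of -0.17 for CAV2 (SE 0.068, adjusted p = 0.122), -0.011 for PTRF (SE 0.12), -0.20 for PRKCDBP (SE 0.20) and -0.31 for EHD2 (SE 0.18, limma, adjusted p from 0.341 to 0.976 for these 3). NRG1 well 2 held 90.9 CPM of CAV2, 78.6 CPM of PTRF and 20.3 CPM of EHD2, against 41.4 and 44.6, 15.7 and 20.3, and 1.65 and 5.42 CPM in the other NRG1 wells under NNK. Its CAV1 level, 671 CPM when scaled to the well's total, was close to the 675 and 697 CPM of its group. On the log2 CPM scale with the normalization factors of the fits (TMM), the CAV1 difference of NRG1 cells under NNK was -0.35. In the other populations it ran from -0.18 to 0.015, so the likeness of that well's CAV1 to its group depends on the scaling. Without NRG1 well 2 CAV2 passed at -0.20 (adjusted p = 0.013) and EHD2 was at -0.43 (adjusted p = 0.068, limma for both). The fit without it called 2245 of 11279 genes, where the main fit called 819 of 11349.

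**Figure D3:**
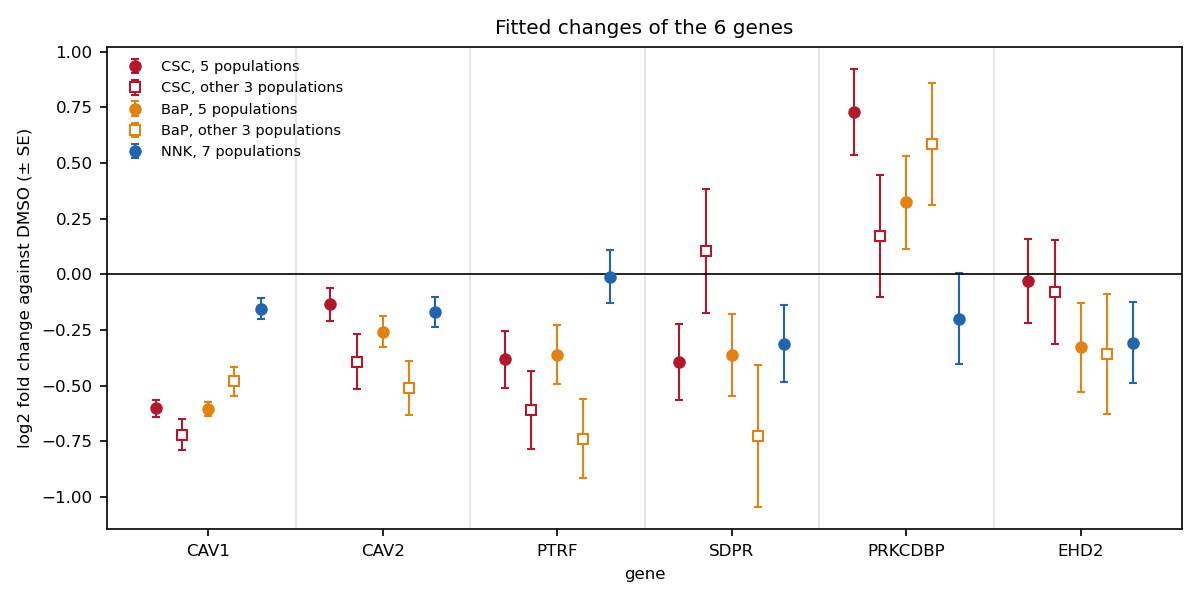
Fitted log2 fold change against DMSO (y axis, bars ± SE) of the 6 genes (x axis) under CSC, BaP and NNK, with circles for the main fits and open squares for the 3 populations outside them. CAV1 lies between -0.72 and -0.48 under CSC and BaP, the PRKCDBP values are above 0 under both although only that of the main CSC fit passed the test, and the SE bars of CAV1 are the shortest.

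Other caveola genes gave little signal. Of 10 listed, CAV3 and PACSIN1 were at 0 in all 82 wells and 4 were tested (PACSIN2, EHD1, EHD4 and FLNA, each averaging between 2.85 and 5.26 CPM). Under CSC, BaP and NNK 0 of them passed by limma, edgeR or DESeq2, with 0, 1 and 1 at an unadjusted p under 0.05 by limma. Their median log2 fold changes were -0.078, -0.045 and -0.068, beside medians of all genes tested at -0.00068, 0.0092 and -0.0090. Of the raft and dynamin genes 4 of 5 were tested, and of the kinases linked to CAV1 and the cavins 5 of 6. Under CSC and BaP 0 of either list passed by limma, edgeR or DESeq2, with 0 of each under CSC and 1 and 2 under BaP at an unadjusted p under 0.05 by limma. The medians of the raft and dynamin genes were -0.080 under CSC and 0.11 under BaP, and those of the kinases 0.025 and -0.15. Among clathrin coat genes, which serve another route of endocytosis, 9 of 10 were tested and 0 passed under CSC by any of the 3 tools, with 3 at an unadjusted p under 0.05 by limma (median -0.11). Under BaP 1 of these rose, CLTA, the clathrin light chain A (0.69, SE 0.088, adjusted p = 8.8e-09, limma), while the list's median was -0.12 and 9.16% of all genes passed. Under NNK, where 7.22% of all genes passed, 1 of 4 raft and dynamin genes, 1 of 6 kinases and 1 of 9 clathrin coat genes fell, STOM by 0.28, YES1 by 0.28 and CLTC by 0.27 (adjusted p = 0.0077, 0.037 and 0.0072, limma). DESeq2 called 0 of the kinases there, with 2 at an unadjusted p under 0.05.

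Some markers of basal airway epithelium passed as well, beside 5.81% of all genes under CSC, 9.16% under BaP and 7.22% under NNK. Of the 8 listed, KRT5 and KRT14, keratins of basal cells, fell under CSC by 0.46 (SE 0.055, adjusted p = 8.0e-10) and 0.87 (SE 0.096, adjusted p = 3.1e-11), (limma), and the other 6 did not pass. Under BaP 4 of 8 fell, among them KRT14 by 0.95 (SE 0.11), KRT5 by 0.33 (SE 0.056) and ITGA6, an integrin of the basal surface, by 0.41 (SE 0.085). The median of the 8 was 0.00061 under CSC and -0.19 under BaP, and under NNK 2 of the 8 rose and 4 fell (median -0.14). The summed level of the 8 markers ran from 461 to 1270 CPM under DMSO, 438 to 1130 CPM under CSC and 399 to 1030 CPM under BaP. Of the markers of other cell types few could be tested, 1 of 4 endothelial, 1 of 4 adipocyte, 0 of 4 muscle and 1 of 5 fibroblast genes (2 of 5 under CSC). Of those 0 passed under CSC, BaP or NNK by limma, edgeR or DESeq2, with the endothelial gene at an unadjusted p under 0.05 under CSC by all 3 tools and under NNK by limma. The part of these markers in the caveolin values was not tested, and in bulk wells fewer cells that express a gene and less RNA of it per cell cannot be told apart.

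Levels also differed between populations under DMSO. In order of mean CAV1, GFP cells stood at 856 ± 14.6 CPM (SD, n = 3), NRF2 at 837 ± 47.5, NRG1 at 804 ± 45.7, FGFR1 at 746 ± 45.3, HCRED at 737 ± 61.4, FAT1 at 731 ± 23.9, PIK3CA at 717 ± 21.6 and CDKN2A at 591 ± 17.1 CPM. Each neighbour in that order overlapped the next, except that every CDKN2A well was below every PIK3CA well. Against HCRED, CAV1 was higher in NRF2 cells by 0.28 (SE 0.054, adjusted p = 0.00015) and in NRG1 cells by 0.20 (SE 0.051, adjusted p = 0.014), and these fits called 4.91% and 3.08% of genes. It was the 1 member called in each, and it passed in neither with 1 fit over all groups (0.28, adjusted p = 0.081, and 0.20, adjusted p = 0.401, limma). The NRG1 call was lost without HCRED well 1 (adjusted p = 0.196) or NRG1 well 1 (0.193). With library totals CAV1 was at 0.12 (adjusted p = 0.210) and PTRF was the member called instead, at -0.76 (adjusted p = 0.045).

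In FGFR1 and PIK3CA cells 0 of 6 members passed by limma (0.914% and 5.4% of genes), with 1 and 3 members at an unadjusted p under 0.05, and edgeR and DESeq2 called 0 members in either. The 2 control populations differed as well, with CAV1 higher in GFP than in HCRED cells by 0.27 (SE 0.052, adjusted p = 0.00018, 10.8% of genes called).

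Against GFP, CDKN2A knockout cells had less of 3 of 6 members, where 17.9% of genes passed. CAV1 fell by 0.64 (SE 0.10, adjusted p = 2.0e-07), with wells at 580.2, 582 and 611 CPM against 839, 863 and 866 CPM. CAV2 fell by 1.02 (SE 0.19, adjusted p = 9.2e-06), with wells at 24.5, 29.2 and 40.3 CPM against 50.7, 58.6 and 64.6 CPM. SDPR fell by 1.33 (SE 0.44, adjusted p = 0.023), with wells at 1.67, 3.81 and 5.76 CPM against 7.33, 8.31 and 8.39 CPM. All 3 were separate groups, but the share of all genes so separated was not computed here, so nothing is read from that count. PTRF, PRKCDBP and EHD2 did not pass (95% interval for PTRF -0.63 to 0.33). The SDPR call was lost without GFP well 1 or 2 or CDKN2A well 1 (adjusted p between 0.053 and 0.219), by DESeq2 (0.166) and with library totals (0.052).

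In FAT1 knockout cells CAV1 was the 1 of 6 called, at -0.17 against GFP cells (SE 0.058, adjusted p = 0.029), where 14.1% of genes passed. The FAT1 wells held 705, 734 and 753 CPM, all below the GFP wells, with no share of all genes so separated to set beside it. The call held under 3 of 13 alternatives and was lost on leaving out any single well (adjusted p between 0.055 and 0.219).

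Across the 25 groups with 3 wells the mean log2 CPM of CAV1 and of PTRF had r = 0.50, of CAV2 r = 0.47, of EHD2 r = 0.097, of SDPR r = 0.085 and of PRKCDBP r = -0.38. Among 11355 genes ranked by r with CAV1, PTRF was number 78, CAV2 number 129, EHD2 number 3611, SDPR number 3890 and PRKCDBP number 11004. The groups share plates, chemicals and control constructs, so these are descriptions with no test. Over the 8 DMSO groups alone CAV2 had r = 0.78 with CAV1 and PTRF r = -0.26, and CDKN2A cells were the lowest group for both caveolins.

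**Figure D4:**
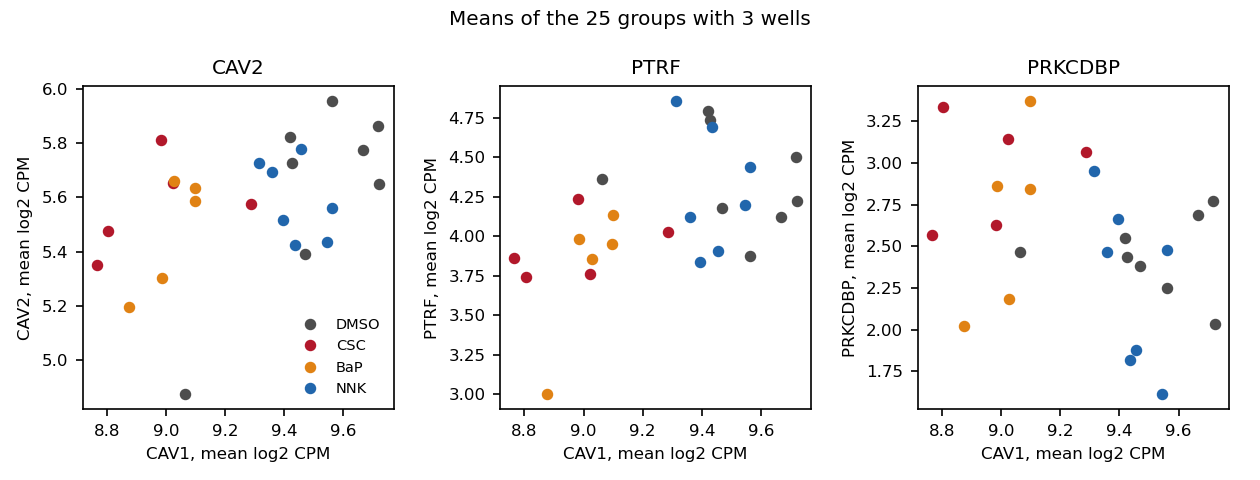
Mean log2 CPM of CAV1 (x axis) against that of CAV2, PTRF and PRKCDBP (y axes) in the 25 groups with 3 wells, coloured by chemical. CSC and BaP groups sit at the left of each panel, CAV2 and PTRF tend to be higher where CAV1 is higher (r = 0.47 and 0.50) and PRKCDBP lower (r = -0.38).

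By the rule of the highest r among 3357 genes averaging at least 20 CPM, the genes whose group means were most like CAV1 were PNRC2, a nuclear receptor coactivator that also serves mRNA decay (r = 0.71), PBK, a mitotic kinase (0.69), CENPF, a kinetochore protein (0.65), OXCT1, a mitochondrial enzyme of ketone use (0.62), and S100A10, the annexin A2 partner at the membrane (0.61). Of the partners only CAV2, at a mean of 45.6 CPM, met that minimum. PTRF (17.2 CPM), EHD2 (6.18 CPM), SDPR (5.81 CPM) and PRKCDBP (4.83 CPM) could not appear, nor could the other listed caveola genes. Their absence from these 5 is therefore not read as a result.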

How the data were processed

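The files deposited by the authors hold UMI counts for each gene and well, with no normalization. The authors received them already quantified: reads were aligned with BWA 0.7.10 to RefSeq transcripts of hg19, and each UMI was counted once per gene and well. Such 3′ counts do not give levels per transcript length, so no gene's level was set against another's. Total counts per well (692446 to 1895735) limit precision most for PRKCDBP, SDPR and EHD2.

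Groups came from sample titles. The members, lists and designs were chosen with earlier results of these data known. Genes with a mean count above 1 were tested in R 4.3.3 with limma 3.58.1 (voom, TMM factors from edgeR 4.0.16), two-sided, with Benjamini-Hochberg adjustment over all genes tested and a threshold of 0.05. Differences between populations in a response used a moderated F from weighted residual sums of squares, used for the partners only, since CAV1 was chosen on those wells. Intervals are estimates ± 1.96 SE. Group means for correlations used log2 CPM with a prior count of 2. The named genes are the 6 members, listed genes called under CSC or BaP (up to 3 a list, chemical and direction), and the 5 genes most like CAV1 among those of at least 20 CPM; STOM, YES1 and CLTC were named after their values were seen.

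The alternatives were edgeR's quasi-likelihood test, DESeq2 1.42.0, median-ratio factors, library totals, no filter, left-out replicates or populations, a replicate block, and 1 fit over all groups. On counts drawn with known answers for CSC against DMSO, over 11222 genes with 67 altered at each fold, the fit recovered 64.2% of 1.5-fold and 97% of 2-fold differences. For a response in 1 population the F recovered 23.9% of 2-fold differences over 11233 genes. In both, altered genes were drawn only from those with a mean count well above the minimum for a test. Recovery among genes nearer that minimum was therefore not measured.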

Additional observations from a re-analysis of the deposited data

Results flagged for a closer look

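PTRF was higher under CSC in every well of FAT1 cells and lower in every well of HCRED and PIK3CA cells, so that the CSC differences of FAT1 and HCRED cells lay 1.35 apart on the log2 CPM scale and those of FAT1 and PIK3CA cells 0.77 apart. Neither pair was tested alone, and the F over all 5 populations did not pass (3.65, adjusted p = 0.730). Group sizes of 3 wells were too small for a check of single outlying wells.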

How the results depend on the processing

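Of 655 gene values under an alternative 580 were scored as unchanged, and 148 of 189 counts of called members stayed within 1.5 times the reported count. A tested fold change had to keep its sign and its call, and an F value its call. An untested CAV1 value had to keep its sign and lie within 0.119 of the reported log2 value. CAV1 stayed between -0.65 and -0.52 under CSC and between -0.65 and -0.54 under BaP in 15 alternatives each, and its calls in the other populations held in all 9 alternatives for each chemical. Because CAV1 was singled out for its fall, perhaps on those wells too, these calls are no independent check of it. The number of partners called under CSC, 1 as reported, was 2 by edgeR and 2 without FAT1 cells, 0 without HCRED or PIK3CA cells, and 0 to 0 without replicates. Under BaP it was 2 by edgeR, 2 with library totals, 2 without NRG1 cells, 0 without FAT1 or NRF2 cells, and 0 to 1 without replicates. Under NNK the 1 called member became 0 without GFP, HCRED or NRF2 cells, 2 without NRG1 cells, and 0 to 3 without replicates. The NNK fit called 2034 of 11247 genes without NRG1 cells and 1424 of 11233 without replicate 2, against 819 of 11349 as reported. In the other populations under CSC the 2 called, CAV1 among them, became 1 by DESeq2, 1 with library totals, 1 with no filter and 1 without FGFR1 or CDKN2A cells. The same 2 became 3, with CAV2 added, by edgeR, with 2-digit wells as separate samples and without NRG1 cells. No partner's response was called as differing between populations under any alternative, including 1 without NRF2 and HCRED cells that was chosen after seeing the data. One fit over all groups turned the 1 call of NRF2 against HCRED, of NRG1 against HCRED and of FAT1 against GFP to 0. For NRG1 against HCRED the range without single wells was 0 to 1. FAT1 against GFP gave 0 by DESeq2, 0 with median-ratio factors, 0 with no filter, 2 with library totals, 2 with the replicate block, and 0 to 1 without single wells.

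The values that changed sign were not called. PTRF under NNK, at -0.011, was 0.0076 by edgeR, 0.0024 by DESeq2, 0.015 with median-ratio factors, 0.0037 with no filter, 0.013 with the replicate block, 0.021 without FGFR1, 0.0016 without GFP, 0.11 without HCRED and 0.049 without PIK3CA cells, and -0.16 to 0.10 without replicates. EHD2 under CSC was 0.17 without PIK3CA cells and -0.29 to 0.26 without replicates, in the other populations 0.15 without FGFR1 and 0.017 without CDKN2A cells, and under BaP there, at -0.36 as reported, 0.050 without FGFR1 cells. SDPR under CSC in the other populations was -0.17 without NRG1 cells. CAV1 in BaP against CSC ran from -0.023 to 0.0007 without replicates.

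Equal replicate numbers did not pair the wells: the deviations of same-numbered wells had a mean correlation of 0.018 (range -0.14 to 0.14, 6 of 72 pairs over 0.1). With replicate number as a block the count of called members was 1 under CSC, 1 under BaP and 1 under NNK, as without it, and the number changed for FAT1 against GFP only. Low counts limit PRKCDBP, SDPR and EHD2, at medians of 6, 7 and 7 counts per well.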
